A study of Mus musculus with 8 samples.

Results

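The 9 genes described here carry glucose across the hepatocyte membrane, commit it to glycolysis, or make it anew. They are the glucose transporter genes Slc2a1 and Slc2a2, the hexokinase genes Hk1 and Hk2, the gluconeogenic genes G6pc, Pck1 and Fbp1, and the pyruvate kinase genes Pklr and Pkm. They were taken by gene symbol from 17276 genes in the files, and all 9 were found and had enough counts to be tested. Hk2 reached that only through its shear stress libraries. The series compared hepatocytes of wild-type (WT) male C57BL/6N mice, 6 to 8 weeks old, under static conditions (4 libraries, replicates 1 to 4) with hepatocytes exposed to shear stress, the drag of a moving fluid on the cell surface (4 libraries, replicates 1 to 4). Strain, sex, age range and genotype were the same in both groups, and the labels name no transgene or drug. The labels give neither the strength nor the duration of the flow, and do not say whether libraries came from separate animals or cultures. The p-values reflect only how far these samples lie apart, a spread that may be technical.

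The liver both consumes and exports glucose, and opposing enzyme pairs set the direction. GLUT2, the product of Slc2a2, is the low-affinity transporter of adult hepatocytes, whereas GLUT1, the product of Slc2a1, is a high-affinity transporter typical of fetal, proliferating or cultured cells. The hexokinases of Hk1 and Hk2 bind glucose with high affinity and trap it in the cell as glucose 6-phosphate. In the opposite direction, Pck1 (cytosolic phosphoenolpyruvate carboxykinase), Fbp1 (fructose bisphosphatase) and G6pc (the catalytic subunit of glucose-6-phosphatase) run gluconeogenesis under control of glucagon, insulin and glucocorticoids. Pyruvate formation at the end of glycolysis is catalysed by the liver pyruvate kinase of Pklr, a carbohydrate-induced gene, or by the enzyme of Pkm, which other tissues and dedifferentiating hepatocytes use.

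Promoter windows are shown for the members that rose most and for Pck1, whose regulation is classically described together with that of G6pc. All 9 members matched the RefSeq table (GRCm38.p6), with 12 windows of 300 bases, from 250 before to 50 after an annotated start. Capitals mark matches, on either strand, to the motifs TTACGTNA and TGACGTCA (forms of the cyclic AMP response element), ACGTG (the core bound by hypoxia-inducible factors), CACGTG (the E-box, which contains ACGTG), the carbohydrate response element in a spaced E-box form and TATAAA (the TATA box).
Pklr, downstream start, chr3:89136373-89136672, plus strand: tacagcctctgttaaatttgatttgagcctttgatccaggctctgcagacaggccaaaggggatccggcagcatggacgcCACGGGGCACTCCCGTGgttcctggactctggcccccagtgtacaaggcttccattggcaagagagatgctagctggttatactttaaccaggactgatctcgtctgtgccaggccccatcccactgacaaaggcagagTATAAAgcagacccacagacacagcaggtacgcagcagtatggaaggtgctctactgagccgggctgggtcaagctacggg
G6pc, chr11:101367466-101367765, plus strand: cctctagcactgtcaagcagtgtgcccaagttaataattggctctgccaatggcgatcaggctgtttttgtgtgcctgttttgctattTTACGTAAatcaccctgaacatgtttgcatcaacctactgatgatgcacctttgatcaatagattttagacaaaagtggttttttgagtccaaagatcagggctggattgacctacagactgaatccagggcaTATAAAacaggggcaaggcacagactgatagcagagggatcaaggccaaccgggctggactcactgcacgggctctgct
Pck1, chr2:173152823-173153122, plus strand: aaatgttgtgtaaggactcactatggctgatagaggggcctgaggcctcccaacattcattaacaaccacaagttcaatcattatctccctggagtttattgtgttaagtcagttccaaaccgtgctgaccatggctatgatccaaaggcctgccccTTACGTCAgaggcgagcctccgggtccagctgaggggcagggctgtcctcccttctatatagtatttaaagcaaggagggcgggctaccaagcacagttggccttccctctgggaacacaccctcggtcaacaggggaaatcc
Hk2, chr6:82774405-82774704, minus strand: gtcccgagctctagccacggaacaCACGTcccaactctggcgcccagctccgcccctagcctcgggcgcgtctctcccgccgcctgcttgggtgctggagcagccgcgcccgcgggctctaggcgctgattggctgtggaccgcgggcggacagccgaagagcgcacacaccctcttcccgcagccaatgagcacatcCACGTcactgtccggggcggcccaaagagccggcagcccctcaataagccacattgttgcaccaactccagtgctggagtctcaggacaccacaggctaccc
Slc2a1, chr4:119108495-119108794, plus strand: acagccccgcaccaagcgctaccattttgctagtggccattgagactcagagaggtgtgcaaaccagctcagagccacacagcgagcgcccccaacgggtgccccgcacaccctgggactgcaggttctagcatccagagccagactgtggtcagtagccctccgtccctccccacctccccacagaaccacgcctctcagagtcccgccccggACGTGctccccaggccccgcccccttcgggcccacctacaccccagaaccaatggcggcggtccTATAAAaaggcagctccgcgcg

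The Pklr window lies within the annotated span of the gene and holds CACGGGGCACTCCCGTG, a match to the carbohydrate response element, which begins at position -170 from the start. The form searched has the same letters as this Pklr match, with only the spacer in the middle left free. Of 32851 windows of this length, only this 1 held that narrow form. Looser forms of the element were not searched, so the count does not show how many windows hold such an element. G6pc held TTACGTAA at position -162 and Pck1 held TTACGTCA at position -93 from the start. The form searched, TTACGTNA, was found in 0.898% of all windows. It leaves free only the base at which the G6pc and Pck1 matches differ. That share therefore does not show how rare such an element is. Hk2 held ACGTG 2 times, in reverse orientation, and Slc2a1 held it 1 time, at position -36. ACGTG was found in 19.6% of all windows. The downstream windows of Hk1 (positions 7 and 16) and Pkm (positions -75 and 8) held it as often as that of Hk2. TGACGTCA and CACGTG, present in 1.79% and 7.15% of all windows, were in none of the 12 windows. TATAAA was present at position -29 in G6pc and -31 at the downstream start of Pklr. In Slc2a1 it was at position 28, after the annotated start. It was in 13.6% of all windows. The windows of Slc2a2 and Fbp1 held none of the motifs. A match is a description of the letters and not a measured binding site.

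The static libraries held 15067056 to 17935566 estimated counts each, and those of shear stress 16225843 to 16732203. At that depth 3 counts correspond to between 0.157 and 0.227 CPM (library-scaled counts, with trimmed mean factors). Levels below are the authors' TPM values (length-scaled transcript shares), which account for length and allow genes to be compared. Changes are log2 fold changes of scaled counts ± standard error, from the edgeR quasi-likelihood test with the replicate number as a block and with Benjamini-Hochberg adjustment over 11747 tested genes. Hepatocyte markers, 10 in all, were abundant and together reached 57586 to 69916 TPM under static and 44583 to 60056 TPM under flow conditions. Of these 10, 9 were called lower, against 31% of all tested genes. Albumin (Alb) led the markers, at 42854 ± 6276 TPM and 33898 ± 7164 TPM (SD, n = 4). Its change was -0.58 ± 0.05, and -0.35 when libraries were scaled by their totals alone.

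Of the 9 members, 4 rose under shear stress (Slc2a1, Hk2, G6pc and Pklr), 2 fell (Fbp1 and Pkm), and Slc2a2, Hk1 and Pck1 did not pass the test. Among all tested genes 61.1% were called, 30.1% higher and 31% lower, so that 6 of 9 members, or 66.7%, is close to the background. Libraries of the groups did not overlap in TPM for 2 members (22.2%), against 42.8% of all tested genes. Every shear stress library exceeded its same-numbered static partner in scaled CPM for 4 members (44.4%, against 33.7% of all tested genes) and fell short of it for 3 (33.3%, against 35.2%). The median change was 0.25 for the members and 0 for all tested genes. The calls depended on the pairing of libraries: without the replicate block 2 members were higher (Slc2a1 and Hk2) and 1 lower (Pkm). Other scalings moved the median of all tested genes by 0.13 (upper quartile), 0.22 (library totals) and 0.2 (deposited FPKM), and the share of calls that were higher from 49.2% to 61.7%, 68.9% and 69.2%. None of the 6 called members changed direction or lost its call with these scalings.

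**Figure D1:**
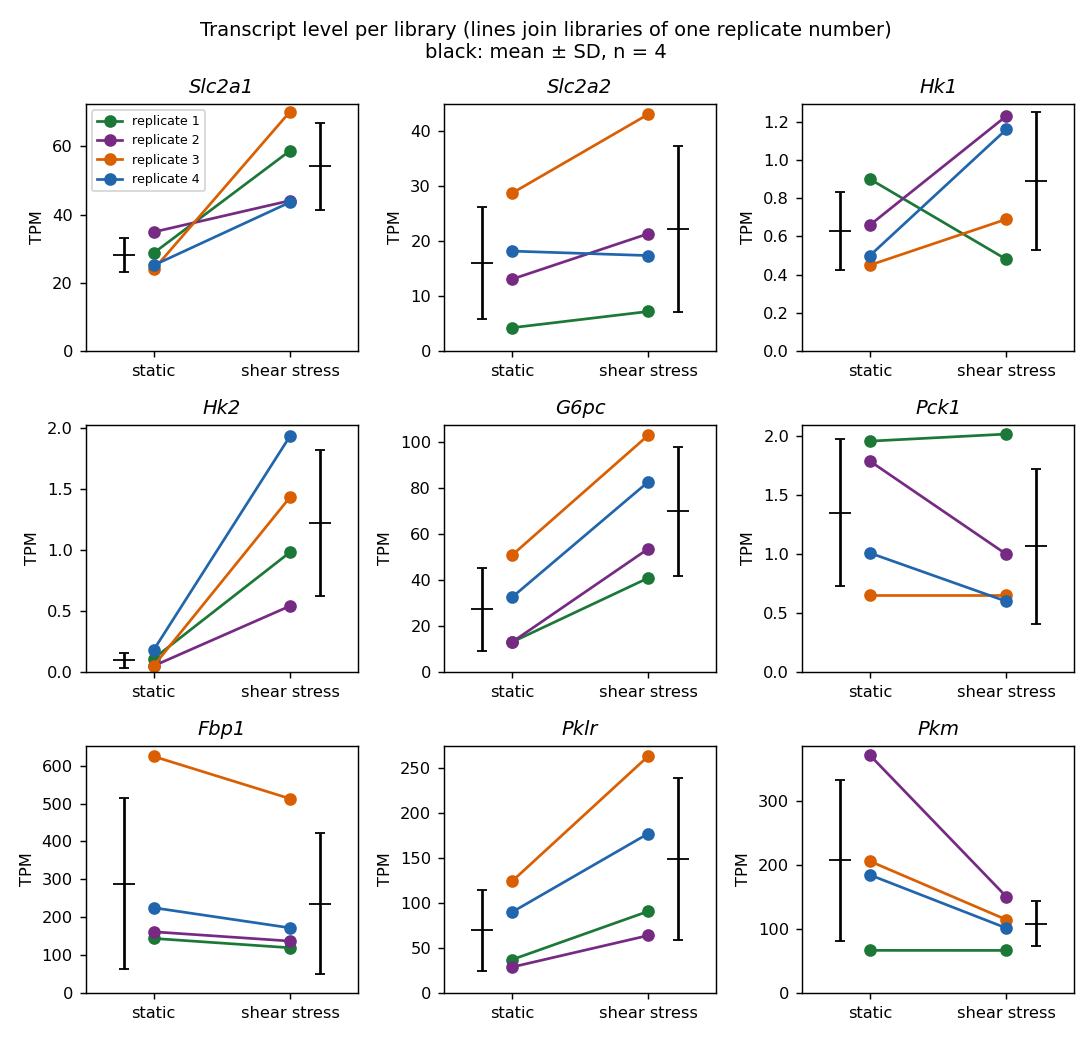
TPM of each of the 9 genes (y axis, from 0) in static and shear stress libraries (x axis). Each line joins the 2 libraries of a replicate number, and the black bars are mean ± SD (n = 4). Fbp1, Pklr, G6pc and Slc2a2 are highest in replicate 3 of both groups, while Hk2 is low in all static libraries and higher in all shear stress libraries.

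Slc2a1, which encodes the glucose transporter GLUT1 (Gene ID 20525; GRCm38 chromosome 4, 119108745 to 119137330), was at 28.7, 34.9, 23.9 and 25.1 TPM in static replicates 1 to 4. In shear stress replicates 1 to 4 it was at 58.7, 44.1, 70.1 and 43.6 TPM. All shear stress libraries lay above all static libraries, with the smallest step in replicate 2. The rise was 1.62-fold (0.70 ± 0.16, adjusted p = 0.0056) in edgeR's test, and between 0.51 and 0.91 on the log2 scale with any replicate number left out. Its size depended on the scaling, with 0.83 for upper quartile factors and 0.92 for library totals.

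Slc2a2, which encodes GLUT2 (Gene ID 20526; chromosome 3, 28697903 to 28728361), was at 4.23, 13.0, 28.6 and 18.1 TPM in static replicates 1 to 4. The shear stress values were 7.18, 21.3, 43.0 and 17.3 TPM. The replicates kept nearly the same order in both groups and differed by 6.77-fold within static libraries, far more than the groups did. The change was 0.25 ± 0.14 (adjusted p = 0.143 in edgeR's test, and 0.0138 at 0.44 without replicate 4). With library totals it was 0.48, adjusted p = 0.0167, and with upper quartile factors 0.39, adjusted p = 0.0394. GLUT1 transcripts made up 65.9% ± 18 (SD, n = 4) of the summed TPM of these transporters in the static group and 72.5% ± 11.7 in the other, and the groups overlapped.

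Of 13 glucose transporter genes, members included, 6 were tested, 2 rose and 1 fell, with a median of 0.07, against 0 for all tested genes. Without the block 1 rose and none fell. Calls in this list and the later ones stand beside 61.1% called over all tested genes, 30.1% higher and 31% lower. The fructose transporter gene Slc2a5 rose from 0.3 ± 0.196 to 0.772 ± 0.445 TPM (adjusted p = 0.0173 in edgeR's test, 0.137 without the block, 0.117 with DESeq2 and 0.0549 without replicate 2). Slc2a4, the insulin-responsive transporter of muscle and fat, was at 0.855 ± 1.27 and 0.31 ± 0.28 TPM (adjusted p = 0.0228, 0.258 without the block and 0.11 with DESeq2).

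Hk2, the inducible hexokinase of muscle and tumour cells (Gene ID 15277; chromosome 6, 82725025 to 82774454), showed the largest change of the 9. Its estimated counts were 7, 3, 3 and 13 in static replicates 1 to 4 and 62, 33, 80 and 129 in shear stress replicates 1 to 4. In TPM that is 0.05 to 0.18 under static and 0.54 to 1.93 under flow conditions, without overlap. The rise was 10.4-fold (3.38 ± 0.29, adjusted p = 1.29e-05 in edgeR's test). Hk2 passed the filter on low counts only through its shear stress libraries. Its place among the tested genes thus depended on the group where it was high. Without that filter the rise was 3.36 on the log2 scale. Summed counts of 26 and 304 gave a ratio of 10.4, with a 95% exact interval of 6.93 to 16.1 that covers counting error only. On the log2(FPKM + 0.1) scale, which understates changes of low genes, the rise was 2.44.

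Hk1, the hexokinase of most tissues (Gene ID 15275; chromosome 10, 62268855 to 62379920), was at 0.9, 0.66, 0.45 and 0.5 TPM in static replicates 1 to 4. It was at 0.48, 1.23, 0.69 and 1.16 TPM in the shear stress libraries. Replicate 1 went down and the other 3 pairs went up, and the change was 0.23 ± 0.33 (adjusted p = 0.561 in edgeR's test), or -0.01 without replicate 4. Of the 6 genes of hexose phosphorylation, 5 were tested, 1 rose (Hk2) and none fell, with a median of 0.23.

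Pklr, the liver pyruvate kinase gene (Gene ID 18770; chromosome 3, 89136122 to 89146815), was at 36.9, 28.7, 123.9 and 89.7 TPM in static replicates 1 to 4. In shear stress replicates 1 to 4 it was at 90.7, 63.8, 263.2 and 177.1 TPM. Each pair stepped up by a similar ratio, between 0.76 and 1.08 on the log2 scale of scaled CPM, although the libraries of the groups overlapped because replicates 3 and 4 were high in both. The rise was 1.86-fold (0.89 ± 0.08, adjusted p = 1.42e-05 in edgeR's test), and without the replicate block 0.83 ± 0.58 (adjusted p = 0.265).

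Pkm, the pyruvate kinase gene of muscle and most other tissues (Gene ID 18746; chromosome 9, 59656576 to 59679372), moved the opposite way. It was at 66.6, 372.2, 206.2 and 184.8 TPM in static replicates 1 to 4, and at 66.6, 150.8, 114.7 and 101.6 TPM in shear stress replicates 1 to 4. Replicate 1 was level in TPM and the lowest library of both groups, whereas replicate 2 was the highest of both. The fall was 1.99-fold (-0.99 ± 0.19, adjusted p = 0.00366 in edgeR's test), and lay between -1.22 and -0.79 with any replicate number left out. The counts are per gene, so that the alternatively spliced Pkm1 and Pkm2 messages cannot be told apart. Pkm made up 64.3%, 92.8%, 62.5% and 67.3% of the pyruvate kinase TPM in static replicates 1 to 4. In shear stress replicates 1 to 4 its share was 42.3%, 70.3%, 30.4% and 36.5%, lower in 4 of 4 pairs, and the larger form was Pkm in every static library but Pklr in shear stress replicates 1, 3 and 4. The means were 71.7% ± 14.2 and 44.8% ± 17.6 (SD, n = 4).

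**Figure D2:**
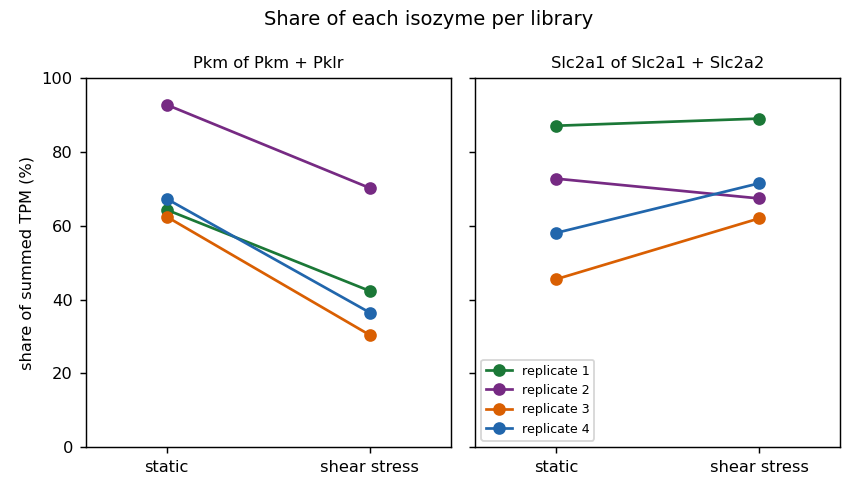
Share of summed TPM (y axis, %) of Pkm in Pkm plus Pklr and of Slc2a1 in Slc2a1 plus Slc2a2, in static and shear stress libraries (x axis), with lines joining libraries of a replicate number. The Pkm share goes down in all 4 pairs, while the Slc2a1 share moves in both directions.

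Of 16 enzyme genes between glucose 6-phosphate and pyruvate, both pyruvate kinases included, 15 were tested, 2 rose and 8 fell. Of all tested genes 30.1% were called higher and 31% lower. The median was -0.32, against 0 for all tested genes. Without the block none rose and 4 fell, and with library totals 3 rose and 4 fell. Tpi1, triose phosphate isomerase, fell from 318 ± 47.7 to 269.8 ± 25.1 TPM (-0.46 ± 0.07, adjusted p = 0.000465). Gpi1, glucose phosphate isomerase, fell from 672 ± 341 to 558 ± 264 TPM (-0.46 ± 0.07, adjusted p = 0.000526, and 0.4 without the block). Of 5 genes that set or degrade fructose 2,6-bisphosphate, the activator of phosphofructokinase and inhibitor of Fbp1, 2 rose and 2 fell, and without the block 1 rose and 2 fell. Pfkfb1, the liver form of the bifunctional enzyme, rose from 1.47 ± 0.504 to 4.33 ± 0.682 TPM (1.36 ± 0.22, adjusted p = 0.000475). Pfkfb2 (-0.73 ± 0.15, adjusted p = 0.00183, and 0.106 with FPKM) and Pfkfb3 (-0.74 ± 0.18, adjusted p = 0.00464) fell.

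**Figure D3:**
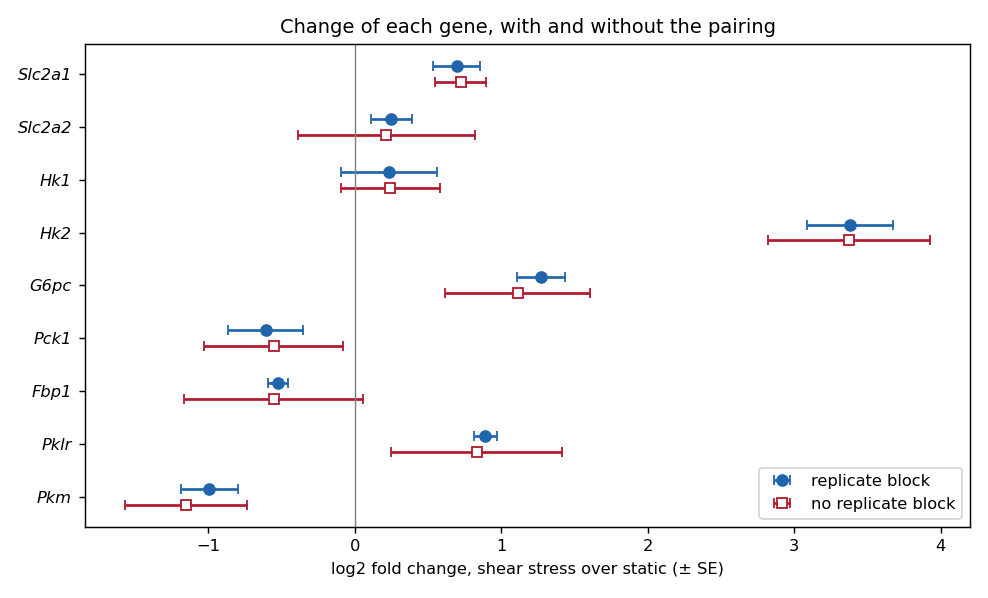
Log2 fold change of shear stress over static (x axis) for the 9 genes (y axis), with SE bars, from the edgeR fit with the replicate block (filled circles) and without it (open squares). The estimates of both fits lie close together, and the bars of Slc2a2, G6pc, Fbp1 and Pklr are much wider without the block.

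G6pc, whose product releases free glucose (Gene ID 14377; chromosome 11, 101367716 to 101377903), was at 12.9, 12.9, 50.7 and 32.4 TPM in static replicates 1 to 4. In shear stress replicates 1 to 4 it was at 40.8, 53.5, 102.9 and 82.6 TPM. Every shear stress library exceeded its partner, and the groups overlapped only because static replicate 3 was above shear stress replicate 1. The rise was 2.42-fold (1.27 ± 0.16, adjusted p = 0.000256 in edgeR's test), and without the replicate block 1.11 ± 0.50 (adjusted p = 0.0931).

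Pck1, the phosphoenolpyruvate carboxykinase gene (Gene ID 18534; chromosome 2, 173153073 to 173159274), was at 1.96, 1.79, 0.65 and 1.01 TPM in static replicates 1 to 4. The shear stress values were 2.02, 1, 0.65 and 0.6 TPM. These levels were low for a gene known to be abundant in fasted liver, and replicate 3, the highest for G6pc and Fbp1, was the lowest or near the lowest here. The change was -0.61 ± 0.26 (adjusted p = 0.0627 in edgeR's test), and no alternative called it.

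Fbp1, fructose bisphosphatase (Gene ID 14121; chromosome 13, 62864753 to 62888298), was the most abundant member of both groups by mean TPM. It was at 143.9, 161.4, 624.6 and 225.0 TPM in static replicates 1 to 4, and at 119.2, 136.9, 513.0 and 171.8 TPM in shear stress replicates 1 to 4. Replicate 3 stood far above the other replicates in both groups. The fall within pairs was nearly constant, between -0.59 and -0.45 on the log2 scale of scaled CPM. It amounted to 1.44-fold (-0.52 ± 0.07, adjusted p = 0.000125 in edgeR's test). Without the block it was -0.55 ± 0.61 (adjusted p = 0.482), and with library totals -0.30, adjusted p = 0.00347.

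Of 10 gluconeogenic genes, members included, 9 were tested, 3 rose and 4 fell, with a median of -0.38. Without the block 1 rose and 2 fell, and with library totals 4 rose and 2 fell. Pcx, pyruvate carboxylase, fell from 100.1 ± 17.8 to 71.3 ± 10.5 TPM (-0.72 ± 0.07, adjusted p = 2.36e-05). Mdh1, cytosolic malate dehydrogenase, fell by 0.38 on the log2 scale (adjusted p = 0.00495, 0.149 with library totals and 0.135 with FPKM). G6pc3, the ubiquitous glucose-6-phosphatase subunit, rose from 3.67 ± 1.56 to 14.9 ± 1.64 TPM (1.84 ± 0.23, adjusted p = 0.000142), in the same direction as G6pc.

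The order of the members by mean TPM in static libraries was Fbp1, Pkm, Pklr, Slc2a1, G6pc, Slc2a2, Pck1, Hk1 and Hk2. Only the steps from Slc2a2 to Pck1 and from Hk1 to Hk2 had no overlap between the ranges of neighbours. In shear stress libraries the order was Fbp1, Pklr, Pkm, G6pc, Slc2a1, Slc2a2, Hk2, Pck1 and Hk1, and only the steps on either side of Slc2a2 were free of overlap.

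Much of the spread of the members went with the replicate number. Of the sum of squares of log2 CPM over the 8 libraries, the replicate number took 95.1% for Slc2a2, 91.1% for Fbp1, 78.8% for Pklr, 76% for Pck1, 54% for Pkm and 51.5% for G6pc. The group took 83.5% for Hk2 and 66.7% for Slc2a1, and for Hk1 69.4% went with neither. The medians over all tested genes were 27.3% for the replicate number and 53.8% for the group. In 7 of 9 members the replicate number took more than the group, as it did in 38.8% of all tested genes. The labels do not say what a replicate number stands for, and its part in these levels was not tested.

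The genes next to the members in the pathway were read in lists, whose calls are given beside the 61.1% called over all tested genes. Of 15 genes of pyruvate and lactate, 13 were tested, 2 rose and 7 fell, with a median of -0.22. Without the block 1 rose and none fell, and with library totals 3 rose and 3 fell. Pdk4, the kinase that switches off pyruvate dehydrogenase, fell from 31.6 ± 28 to 10.2 ± 8.19 TPM (-1.84 ± 0.13, adjusted p = 4.9e-06, and 0.0593 without the block). The mitochondrial pyruvate carrier genes Mpc1 (-0.41 ± 0.07, adjusted p = 0.000754) and Mpc2 (-0.49 ± 0.09, adjusted p = 0.00104) fell together. Without the block their adjusted p-values were 0.138 and 0.211.

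Of 17 glycogen genes, 16 were tested, 5 rose and 7 fell, with a median of 0.01, and without the block 4 rose and 4 fell. Gys1, the glycogen synthase of muscle and most tissues, rose from 0.65 ± 0.218 to 3.93 ± 0.968 TPM (2.37 ± 0.18, adjusted p = 6.59e-06). Gys2, the liver glycogen synthase, singled out after its value was seen, fell from 34.8 ± 15.3 to 24.4 ± 13.5 TPM (-0.82 ± 0.10, adjusted p = 8.55e-05, and 0.243 without the block). Ugp2, which makes UDP-glucose, fell by 0.68 (adjusted p = 5.16e-05, and 0.175 without the block). Of 8 pentose phosphate genes, 1 rose and 3 fell, with a median of -0.21, and without the block none rose and 1 fell. With library totals 2 rose and 1 fell. G6pdx, which opens that pathway, fell from 85.4 ± 38.9 to 40.8 ± 11.9 TPM (-1.23 ± 0.12, adjusted p = 3.65e-05). Pgd fell by 0.28 (adjusted p = 0.00451 in edgeR's test). That call was lost without the block (0.202) and with upper quartile factors (0.0744), library totals (0.428) and FPKM (0.377). Rpe rose by 0.32 (adjusted p = 0.0412, 0.0632 without the block, 0.0629 with DESeq2, 0.133 without replicate 3 and 0.156 without replicate 4).

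All 5 genes of fructose and polyol metabolism were called, 4 lower and 1 higher, and 2 and 1 without the block or with library totals. Akr1b3, the aldose reductase that turns glucose into sorbitol, fell from 104.8 ± 60.7 to 24.0 ± 11.7 TPM (-2.29 ± 0.14, adjusted p = 3.82e-06). Sord, the sorbitol dehydrogenase of the next step, fell from 205 ± 47.5 to 100.2 ± 34.5 TPM (-1.29 ± 0.08, adjusted p = 2.73e-06). Glyctk, glycerate kinase, rose from 10.6 to 23.2 TPM (0.93 ± 0.15, adjusted p = 0.000567).

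**Figure D4:**
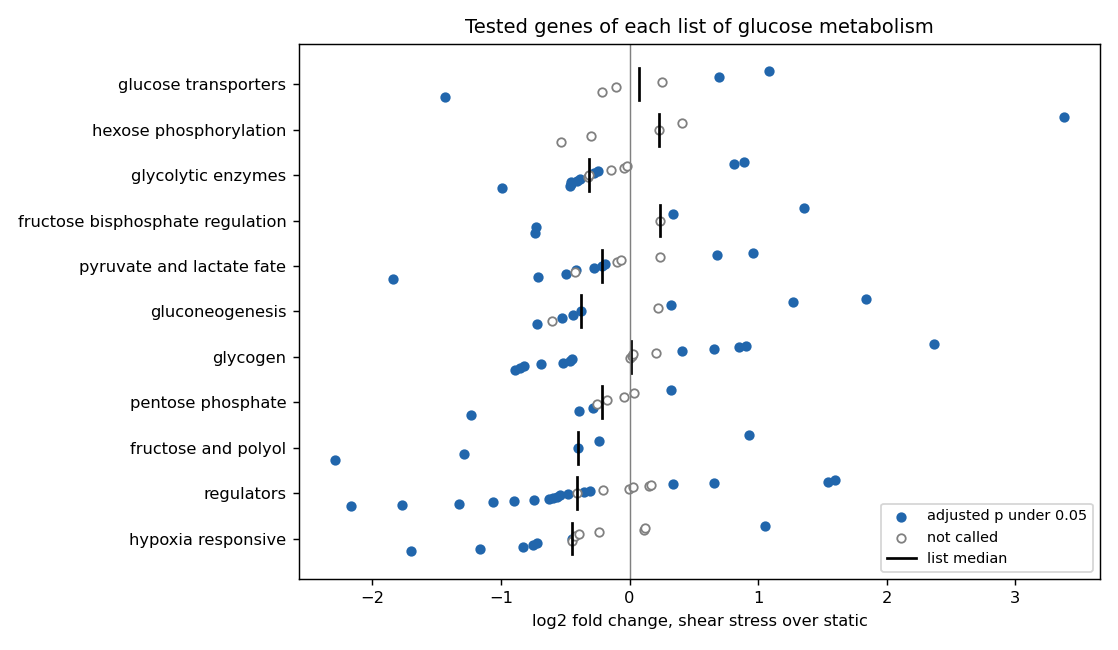
Log2 fold change of shear stress over static (x axis) for every tested gene of the 11 lists of glucose metabolism and its control (y axis). Filled points passed an adjusted p of 0.05, open points did not, and black bars are list medians, which lie between -0.45 and 0.24.

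Of 23 regulators of these genes, 4 rose and 13 fell, with a median of -0.41, and without the block 3 rose and 7 fell. Sik1, a kinase induced by cyclic AMP that restrains the CREB coactivators, rose from 6.01 ± 1.70 to 20.3 ± 4.46 TPM (1.54 ± 0.10, adjusted p = 3.71e-06). Crtc2, such a coactivator and a known driver of G6pc and Pck1, fell from 45.5 ± 8.61 to 25.1 ± 3.79 TPM (-1.06 ± 0.10, adjusted p = 1.84e-05). Tcf7l2, a Wnt pathway transcription factor, rose by 1.60 ± 0.13 (adjusted p = 1.12e-05). Of 14 hypoxia-responsive genes, which often move with Slc2a1 and Hk2, 13 were tested, 1 rose and 6 fell, with a median of -0.45. With library totals 3 rose and 4 fell. Ndrg1 fell by 1.70 (adjusted p = 1.58e-06) and Vegfa by 0.83 (adjusted p = 8.5e-05), whereas Ddit4, which restrains mTOR, rose by 1.06 ± 0.11 (adjusted p = 3.92e-05). The part of hypoxia signalling in the changes of Slc2a1 and Hk2 was not tested.

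Markers of other liver cells bear on Pkm, Hk1, Hk2 and Slc2a1, which such cells are known to express, and in bulk RNA fewer cells of a type and less RNA per cell cannot be told apart. Endothelial markers (8) summed to 3.58 to 9.07 TPM under static and 1.89 to 8.2 TPM under flow conditions. Pecam1, the most abundant of them, fell from 4.1 ± 1.64 to 0.88 ± 0.594 TPM (-2.49 ± 0.25, adjusted p = 2.68e-05). The other 4 tested endothelial markers had estimates above 0 and did not pass the test (Cdh5 0.58, Stab2 0.40, Lyve1 0.38 and Kdr 0.20), and the list's median was 0.38. Macrophage and leukocyte markers (7 in the files) summed to between 27.3 and 68.3 and between 24.9 and 78.4 TPM. Nearly all of that was Cd68, a lysosomal gene (51.2 ± 18.4 and 53.6 ± 22.2 TPM), while the Kupffer cell genes Clec4f and Adgre1 averaged below 0.1 TPM. Stellate and fibroblast markers (8) reached at most 6.43 TPM, and 2 of them were tested. Dcn, a matrix proteoglycan gene singled out after its value was seen, held most of that TPM and fell from 3.04 ± 1.97 to 2.01 ± 0.779 TPM (-0.72 ± 0.23, adjusted p = 0.022). Reln, the most abundant in CPM, was at 0.485 ± 0.385 and 0.53 ± 0.264 TPM (adjusted p = 0.87). Cholangiocyte markers (4 in the files) summed to 91.5 to 1311 TPM under static and 247 to 1952 TPM under flow conditions. They were led by Spp1 (612 ± 510 and 950 ± 713 TPM), while Krt19 was at 0.0275 and 0.212 TPM and was not tested. Of the 3 tested, 2 were called higher in edgeR's test, both near the threshold. These were Spp1 (0.65 ± 0.24, adjusted p = 0.0467) and Epcam (1.01 ± 0.40, adjusted p = 0.0499). Sox9 did not pass (-0.12 ± 0.33, adjusted p = 0.769). Erythroid markers (5 in the files) summed to between 8.19 and 25.9 and between 9.92 and 23 TPM, led by Alas2 (20.3 ± 8.16 and 17.1 ± 7.21 TPM), a haem synthesis gene. Alas2 was the only erythroid marker tested, and it fell (-0.49 ± 0.10, adjusted p = 0.00201 in edgeR's test). No marker in the files was at 0 in all libraries, and the part of these cells in the results was not tested.

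Over the 8 libraries, the gene whose log2 CPM followed each member most closely (Pearson's r, among 9336 or more genes averaging 5 CPM or above, as a description) was Zfp655 for Slc2a1 (r = 0.988), Eno1 for Slc2a2 (0.973), Klhl12 for Hk2 (0.987) and Kank2 for Hk1 (0.894). It was Igfals for G6pc (0.956), Ift57 for Pck1 (0.98), Cyp2d40 for Fbp1 (0.978), Cmah for Pklr (0.977) and Hpgd for Pkm (0.966). The libraries share group and replicate, and 97 genes exceeded r = 0.95 for Hk2.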

How the data were processed

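RNA of 8 hepatocyte libraries was measured by sequencing on DNBSEQ after TRIzol extraction, per the labels. The submitters' processing notes name HISAT, Bowtie2, RSEM and the builds GRCm38 and mm10. For versions, annotation and strand, the sources used here give nothing. The deposited read counts are expected counts estimated by the authors, of which between 9.31% and 10.7% per library were not whole, and they were rounded. Levels are the deposited TPM values, which the authors computed, and carry no test. The FPKM values, also deposited by the authors, served 1 alternative in limma 3.58.1 on log2(FPKM + 0.1). Genes passing filterByExpr (11747) were scaled with TMM factors and tested with edgeR 4.0.16 in R 4.3.3 (glmQLFit and glmQLFTest, robust) at an adjusted p of 0.05, a procedure tested on simulated data with few changed genes, where the share of false calls was well above that rate, so that calls near the threshold are the less certain ones. DESeq2 1.42.0 was an alternative.

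Both groups carry replicate numbers 1 to 4. The numbers were used as pairs, a choice made beforehand with earlier results of these data known. After removal of group means, same-numbered libraries correlated at r = 0.679, 0.642, 0.56 and 0.467 over 8446 genes (largest between other numbers -0.018). Where same-numbered libraries correlate, removing group means itself lowers the correlations between other numbers, so these are no independent baseline. The biological coefficient of variation was 0.125 with this block and 0.214 without. The members and lists were chosen with earlier results of these data known. Named were all members, up to 3 called genes of each list by smallest p (or its most abundant gene), Alb, the most abundant marker of each list and the gene most like each member. 4 list markers have no row in the files used here. Some genes that this rule names, and the shares among hexokinases, are not reported here.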

Additional observations from a re-analysis of the deposited data

Results flagged for a closer look

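Among 22 sets of 4 libraries (TPM of 9 members and shares of Pkm and Slc2a1 among their isozymes, in each group), 3 had a library whose gap to its nearest neighbour exceeded Dixon's 95% critical share of the whole range. Chance gives that in about 1 of 20 sets of independent, normally distributed values. The sets here share libraries and their distribution was not tested, so that 3 of 22 cannot be measured against that rate. Fbp1 was at 624.6 TPM in static replicate 3 against 225 TPM in the next library, and at 513 TPM in shear stress replicate 3 against 171.8 TPM. The share of Pkm among pyruvate kinase transcripts was 92.8% in static replicate 2 against 67.3% in the next library. Without replicate 3 the change of Fbp1 was -0.50 (adjusted p = 0.000756 in edgeR's test), and without replicate 2 that of Pkm was -0.79 (adjusted p = 0.00826).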

How the results depend on the processing

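With all libraries kept, the calls of members changed most without the replicate block. In that unpaired fit 2 members were called higher and 1 lower, in place of 4 and 2, and adjusted p-values were 0.0931 for G6pc, 0.265 for Pklr, 0.482 for Fbp1 and 0.0471 for Pkm. With a replicate number left out, or 1 library left out of the unpaired fit, between 2 and 5 members were called higher and between 0 and 2 lower. Of all genes, 3531 were higher and 3645 lower, and with a replicate number left out 3138 to 3341 and 3008 to 3456. Without the block 2924 were higher and 2783 lower, and with 1 library left out of that fit 2436 to 2841 and 2224 to 2681 (2373 lower when replicate 1 of the shear stress group was dropped, and 2224 when its replicate 4 was). Scaling moved the count of higher genes more, to 5080 with library totals and 4791 with FPKM. The count of lower genes went to 2294 and 2136, similar to the 2224 without shear stress replicate 4 in the unpaired fit. The cause was not tested. Slc2a1 and Hk2 were called in all 19 alternatives. The direction reversed for Slc2a2 without static replicate 1 (-0.10) and without shear stress replicate 3 (-0.31), and for Fbp1 (0.18) and Slc2a4 (0.27) without static replicate 3, all unpaired. It reversed for Hk1 without replicate 4 (-0.013), and without replicate 1 was 0.67. In the unpaired fit the call of Pkm was lost when any library other than static replicate 1 was left out. Hk2, Hk1 and Pck1 are limited by depth, with few counts per library.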
